A study of Mus musculus with 3 samples.

Results

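The Notch pathway and its Hes and Hey factors were examined in undifferentiated mouse ES cells with and without Pcgf1. The 10 genes were chosen by name, with earlier results of these data known. They comprised the ligands Dll1, Dll3 and Jag1, the receptors Notch1, Notch2 and Notch3, and the transcription factors Hes1, Hes2, Hes6 and Hey1. Of these, 9 were found under their own symbol among the 25350 genes listed by name in all samples. Notch2 was found only as part of a merged locus, "Notch2,Gm42820", and is described apart from the other 9.

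RNA-seq was performed on 3 samples, 1 for each condition. No difference in these data therefore has a replicate check, and no test between conditions was possible. By RT-qPCR with independent biological repeats, the paper reports lower Hes2 and Flk1 (Kdr) in ES cells without Pcgf1. All cells were mouse ES cells of strain C57BL/6, grown in serum and leukemia inhibitory factor together with mitomycin-C-inactivated embryonic fibroblasts (MEFs). The conditions were wild-type (WT), Pcgf1-/- (labelled Pcgf1KO), in which Cas9 removed exons 2 and 3 of Pcgf1 in cells derived from single colonies, and Pcgf1-/-+Pcgf1 (labelled Pcgf1KO+Pcgf1_flag, the restored cells), which were the knockout cells after lentiviral transfer of Pcgf1 with a FLAG tag. Any effect of the colony or of the viral infection cannot be told apart from that of the genotype. Pcgf1 is a subunit of PRC1.1, a Polycomb complex that Kdm2b brings to CpG-rich promoters, and the comparisons ask how its loss and its return bear on the expression of developmental genes.

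Notch receptors are activated by ligands of the Delta-like and Jagged families on neighbouring cells. Gamma-secretase then frees the intracellular domain of the receptor, which joins Rbpj and Mastermind-like proteins in the nucleus and switches on target genes, the Hes and Hey repressors among them. In ES cells the pathway is known mainly for its part in the choice of neural and mesodermal fates.

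Expression is given in FPKM, fragment numbers scaled by transcript length and by the size of the library, which allows levels of different genes to be set side by side, and each sample was normalised on its own by the authors. First exons and last exons of a gene were summed apart, and the larger of both sums is its value. Differences are given as the log2 ratio of (FPKM + 0.1), fold differences are on the same scale, which understates those of low genes, and a gene is called higher or lower beyond 2-fold. As background, 9.41% of the 13424 genes above 0 in either sample were called lower in Pcgf1-/- than in WT, and 4.07% were called higher. Among the 9438 genes with at least 1 FPKM in either sample, the shares were 6.11% and 2.98%. The files hold no counts. The smallest steps of the values put 1 fragment at about the same worth in the 3 samples (0.0517, 0.0491 and 0.0503 FPKM for a transcript of 1 kb), and by this rough measure Hes6 rested on about 1453 fragments in WT, whereas Dll1 and Hes2 rested on about 25 and 18 in Pcgf1-/-.

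All 10 genes (Notch2 through its merged locus) were above 0 in every sample. Of the 9 with a name of their own, Dll1, Hes2, Hes6 and Dll3 were more than 2-fold lower in Pcgf1-/- than in WT and none was more than 2-fold higher. The median log2 ratio of the 9 was -0.39, against -0.12 for all 13424 genes. On return of Pcgf1, Dll1, Hes2 and Hes6 were more than 2-fold higher than in Pcgf1-/- and none was lower, with 11.8% of all genes called higher and 4.11% called lower. Among genes with at least 1 FPKM the shares were 7.23% higher and 3.6% lower. The median of the 9 in this comparison was 0.05, the same as that of all genes to 2 decimals. Both comparisons share the Pcgf1-/- sample. Compared with WT, Pcgf1-/-+Pcgf1 cells had 1 gene of the 9 more than 2-fold lower, Hes2, and none higher. Of all genes, 4.32% were lower and 7.31% higher, or 2.65% and 3.84% of those with at least 1 FPKM. The median of the 9 in this comparison was -0.43, against -0.07 for all genes, and 7 of the 9 ratios were below 0.

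**Figure D1:**
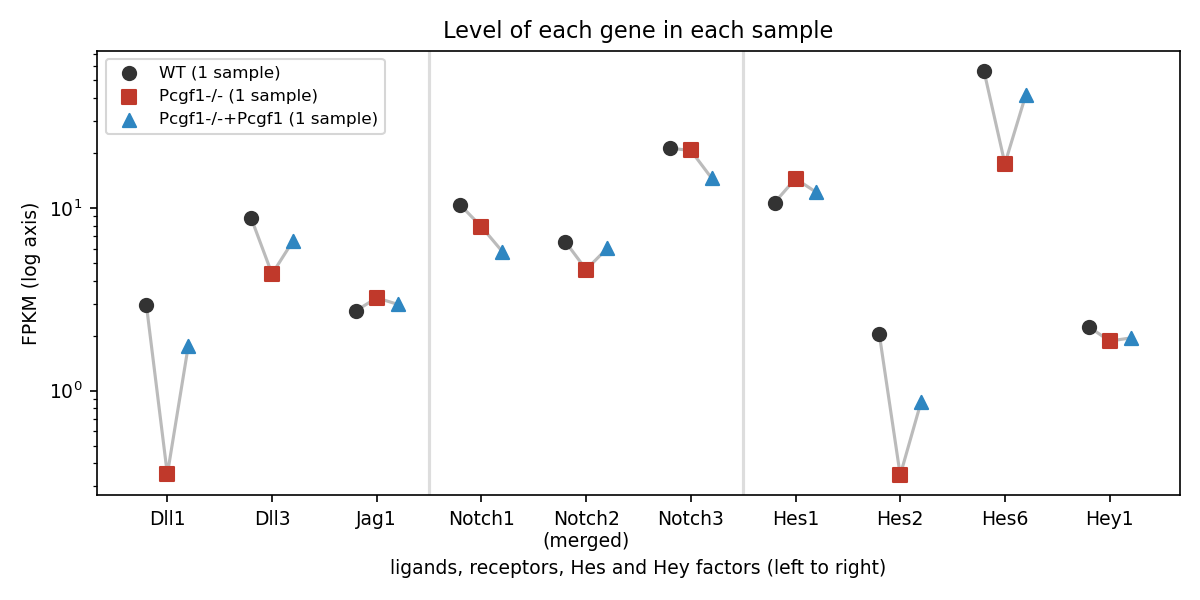
FPKM (log axis) of the 10 genes in WT (circles), Pcgf1-/- (squares) and Pcgf1-/-+Pcgf1 (triangles), 1 sample each, grouped into ligands, receptors, and Hes and Hey factors. The values of Dll1, Dll3, Hes2 and Hes6 are lowest in Pcgf1-/-, at 0.348, 4.35, 0.345 and 17.5 FPKM, and those of Notch1 and Notch3 are lowest in Pcgf1-/-+Pcgf1.

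In WT the highest level was that of Hes6, at 56.3 FPKM, which lay above 91.2% of the genes detected in that sample. It was followed by Notch3, Hes1, Notch1 and Dll3, between 21.3 and 8.83 FPKM. Dll1, Jag1, Hey1 and Hes2 formed a lower tier between 2.94 and 2.04 FPKM. In Pcgf1-/- Notch3 was the highest, at 20.7 FPKM, ahead of Hes6 and Hes1. Dll1 and Hes2 were the lowest there and lay above only 19.3% and 19.2% of the detected genes. In Pcgf1-/-+Pcgf1 Hes6 was again above Notch3, at 41.7 against 14.5 FPKM. Without replicates, the order of genes with close values, such as Hes1 and Notch1 in WT at 10.7 and 10.4 FPKM, has no spread to be read against.

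Among the ligands, both Delta-like genes were lower in Pcgf1-/- and Jag1 was not. Dll1, which activates Notch receptors on adjacent cells, lies on the minus strand of chromosome 17 (ENSMUSG00000014773, mm10, 15367354 to 15376872). Its level was 2.94 FPKM in WT, 0.348 in Pcgf1-/- and 1.76 in the restored cells. Pcgf1-/- was thus 6.77-fold below WT (log2 ratio -2.76), the largest difference among the 9 genes. With Pcgf1 returned, Dll1 was 4.15-fold above the knockout level and remained below WT, at a log2 ratio of -0.71.

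The Dll1 signal was listed on several first exons, and its split among them differed between the restored sample and WT. These are low values from 1 sample each, and exons were listed for each sample apart, so a difference in start use was not tested. The first exon of the main coding transcript (chr17:15375187-15375976) carried 1.55 FPKM in WT, 0.348 in Pcgf1-/- and 0.518 in the restored cells. On this exon alone the Pcgf1-/- to WT log2 ratio was -1.88, and the restored cells lay at 0.46 to Pcgf1-/- and at -1.41 to WT. An exon inside the gene that GENCODE assigns to a retained-intron transcript (chr17:15373890-15374072) carried 1.39 FPKM in WT and 0.802 in Pcgf1-/-+Pcgf1 and was at 0 in Pcgf1-/-. The upstream first exon of another coding transcript (chr17:15376671-15376872) carried 0.439 FPKM in Pcgf1-/-+Pcgf1 and none in WT, and was not listed in Pcgf1-/-. The larger part of the Dll1 signal in Pcgf1-/-+Pcgf1 therefore lay outside the main first exon. The antisense gene A930024N18Rik overlaps this locus and was listed at 0 in all samples. The library kit is not stated to keep the strand, so that reads from opposite strands cannot be told apart.

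The sequences upstream of the start sites of Dll1 are shown because this gene differed most between WT and Pcgf1-/- and has signal on more than 1 listed first exon. They are from RefSeq (GRCm38.p6, the build of the files), on the minus strand, 5′ to 3′. For the main start only the 97 bases outside the annotated first exon are shown (chr17:15375977-15376073), and for the upstream start 250 bases (chr17:15376933-15377182). Capitals mark CACGNG, a class of site bound by Hes repressors.
Dll1, main start: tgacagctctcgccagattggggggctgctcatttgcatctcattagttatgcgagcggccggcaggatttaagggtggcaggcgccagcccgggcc
Dll1, upstream start: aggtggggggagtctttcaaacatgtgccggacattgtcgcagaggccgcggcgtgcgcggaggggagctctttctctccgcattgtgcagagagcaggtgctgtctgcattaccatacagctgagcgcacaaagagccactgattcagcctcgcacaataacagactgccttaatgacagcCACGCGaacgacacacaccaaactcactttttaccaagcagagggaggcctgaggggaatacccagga

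Dll3 encodes a divergent Delta-like protein that acts inside the cell on Notch signalling rather than as an activating ligand, and lies on the minus strand of chromosome 7 (ENSMUSG00000003436, 28293553 to 28302238). Its level was 8.83 FPKM in WT, 4.35 in Pcgf1-/- and 6.61 in the restored cells. The Pcgf1-/- to WT log2 ratio was -1.003, only just past the 2-fold limit, and it came to -0.88 with a pseudocount of 1 FPKM and -0.89 with median-of-ratios scaling. Pcgf1-/-+Pcgf1 was 1.51-fold above Pcgf1-/-, within the limit. All of the Dll3 signal was read from last exons, since its listed first exon was at 0 in every sample. The last exon of the main transcript (chr7:28293553-28293926) gave 5.63 FPKM in Pcgf1-/-+Pcgf1, and the remaining 0.973 came from a last exon of a retained-intron transcript that was at 0 in the other 2 samples.

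Jag1, a ligand of the Jagged family, lies on the minus strand of chromosome 2 (ENSMUSG00000027276, 137081456 to 137116644) and differed little. It was at 2.73 FPKM in WT, 3.22 in Pcgf1-/- and 2.97 in the restored cells, with log2 ratios between -0.11 and 0.23. The last exon gave the same 3 values. Among first exons, the sum in Pcgf1-/- held 0.686 FPKM from an unannotated exon that was listed in that sample only. On the main first exon Pcgf1-/- lay at 2.54 FPKM, slightly below both other samples.

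The receptors differed less than the Delta-like ligands between Pcgf1-/- and either other sample. Between the restored cells and WT, Notch1 differed more than Dll1, at log2 ratios of -0.83 and -0.71. Neither Notch1, Notch3 nor the Notch2 locus passed the 2-fold limit in any comparison. Notch1 (ENSMUSG00000026923, chromosome 2, minus strand, 26457903 to 26516663) was at 10.4 FPKM in WT, 7.90 in Pcgf1-/- and 5.77 in the restored cells. The log2 ratios were -0.39 for Pcgf1-/- to WT and -0.83 for Pcgf1-/-+Pcgf1 to WT. Its level was thus lowest in the sample with Pcgf1 returned, unlike that of Dll1, Hes2 and Hes6.

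The main first exon of Notch1 (chr2:26503498-26503822) gave nearly the same value in all samples, at 6.08, 5.60 and 5.77 FPKM. The rest came from exons of processed transcripts inside the gene. The exon at chr2:26469605-26469749 carried 4.28 FPKM and was listed in WT only, and the exon at chr2:26470274-26470498 carried 2.30 FPKM and was listed in Pcgf1-/- only. On the main first exon alone the Pcgf1-/- to WT log2 ratio was -0.12, and the restored cells lay at -0.07 to WT. The only listed last exon of Notch1 was at 0 throughout, so its last-exon sum gives no second reading.

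Notch3 (ENSMUSG00000038146, chromosome 17, minus strand, 32120820 to 32166852) was the most abundant receptor. WT and Pcgf1-/- were at 21.3 and 20.7 FPKM, a log2 ratio of -0.04, and the restored cells at 14.5. The main first exon carried all of the value in WT and Pcgf1-/-. In Pcgf1-/-+Pcgf1 it carried 11.3 FPKM, with 3.25 more on an unannotated first exon, so that the main exon alone gave a log2 ratio to Pcgf1-/- of -0.87. The antisense genes that overlap Notch1 and Notch3 were listed at 0 in all samples.

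The merged locus of Notch2 and Gm42820 (Notch2: ENSMUSG00000027878, chromosome 3, plus strand, 98013527 to 98150361) was at 6.56 FPKM in WT, 4.60 in Pcgf1-/- and 6.01 in the restored cells. Its Pcgf1-/- to WT log2 ratio was -0.50 over the whole locus, and the last exon of Notch2 gave the same 3 values. On the first exon of the main Notch2 transcript the order was different, with 3.54 FPKM in WT, 4.60 in Pcgf1-/- and 6.01 in the restored cells, a log2 ratio of 0.37 for Pcgf1-/- to WT. The difference between both readings was a first exon within the locus (chr3:98121588-98122105) that carried 3.01 FPKM and was listed in WT only.

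**Figure D2:**
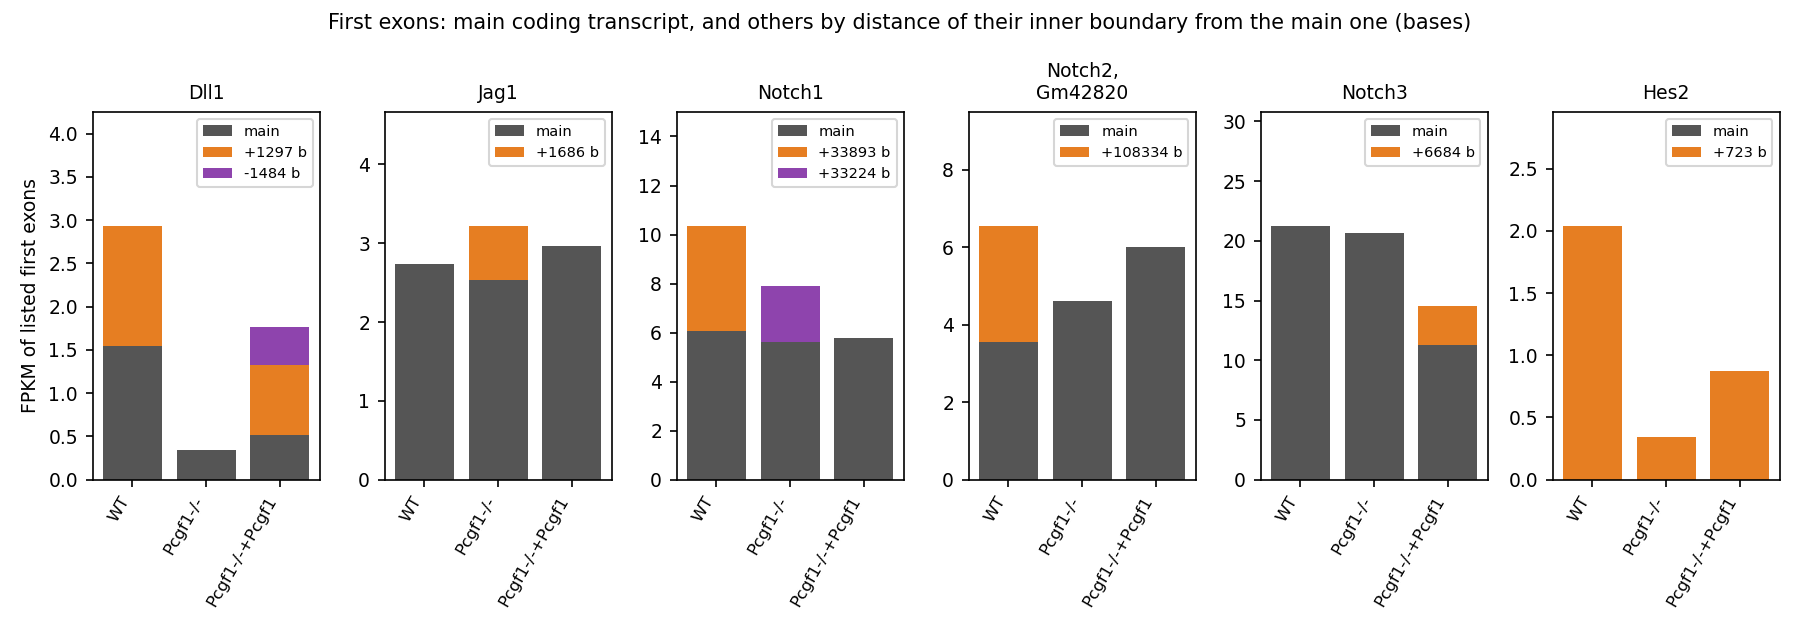
FPKM of listed first exons, stacked, in WT, Pcgf1-/- and Pcgf1-/-+Pcgf1 (1 sample each) for the 6 loci with signal outside the first exon of the main coding transcript. Dark bars are the main first exon and coloured bars are other first exons, named by the distance of their inner boundary from that of the main exon in bases (positive downstream). The dark bars of Notch1 are nearly level, at 6.08, 5.60 and 5.77 FPKM, and Hes2 has no dark bar.

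Of the Hes and Hey factors, Hes6 and Hes2 were lower in Pcgf1-/- and higher again with Pcgf1 returned, whereas Hes1 and Hey1 were within the limit. Hes6 promotes neuronal differentiation and counteracts Hes1. It lies on the minus strand of chromosome 1 (ENSMUSG00000067071, 91411483 to 91414038). Its level was 56.3 FPKM in WT, 17.5 in Pcgf1-/- and 41.7 in the restored cells. Pcgf1-/- was 3.21-fold below WT (log2 ratio -1.68), and Pcgf1-/-+Pcgf1 was 2.38-fold above Pcgf1-/- and at a log2 ratio of -0.43 to WT.

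Both ends of Hes6 gave the same order of samples. All first-exon signal came from the main coding start (chr1:91413057-91413208), and the upstream first exon (chr1:91413971-91414038) was at 0 in every sample. The last exon gave 48.2, 15.9 and 37.8 FPKM in WT, Pcgf1-/- and restored cells. An intron within the gene (chr1:91412802-91412893) was listed as retained and as spliced, and the retained form was at 0 in all samples.

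The 250 bases before both RefSeq starts of Hes6 are shown, the main start at chr1:91413223-91413472 and the upstream start at chr1:91414039-91414288 (GRCm38.p6, minus strand), because the first carried all of the signal and the second none. Capitals mark CACGNG, or CACNAG, the N-box that Hes proteins also bind.
Hes6, main start: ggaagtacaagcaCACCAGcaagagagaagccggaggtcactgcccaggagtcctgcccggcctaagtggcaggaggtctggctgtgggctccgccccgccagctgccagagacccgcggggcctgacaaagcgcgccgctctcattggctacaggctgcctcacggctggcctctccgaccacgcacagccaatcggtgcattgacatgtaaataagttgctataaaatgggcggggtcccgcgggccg
Hes6, upstream start: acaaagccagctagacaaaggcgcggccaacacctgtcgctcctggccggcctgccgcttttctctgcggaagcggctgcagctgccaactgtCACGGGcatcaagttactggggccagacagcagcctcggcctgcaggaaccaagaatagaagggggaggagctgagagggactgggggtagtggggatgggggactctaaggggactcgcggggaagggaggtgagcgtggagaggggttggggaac

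Hes2, a repressor of the same family, lies on the plus strand of chromosome 4 (ENSMUSG00000028940, 152158867 to 152162469). Its level was 2.04 FPKM in WT, 0.345 in Pcgf1-/- and 0.871 in the restored cells. Pcgf1-/- was 4.81-fold below WT (log2 ratio -2.27). Pcgf1-/-+Pcgf1 was 2.18-fold above Pcgf1-/- and still 2.21-fold below WT, which made Hes2 the only gene of the 9 to differ more than 2-fold between the restored cells and WT by these sums. Both ratios of Pcgf1-/-+Pcgf1 were within 2-fold with a pseudocount of 1 FPKM, at log2 0.48 to Pcgf1-/- and -0.70 to WT. The annotated first exon of the main coding transcript (chr4:152158867-152158990) was at 0 in all samples. The whole signal belonged to a first exon further downstream that ends at 152159713, annotated to a processed transcript, and to the last exon of the main coding transcript (chr4:152160317-152162469).

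Hes1, the best-known Notch target of the family, lies on the plus strand of chromosome 16 (ENSMUSG00000022528, 30064384 to 30067796). It was at 10.7 FPKM in WT, 14.5 in Pcgf1-/- and 12.2 in the restored cells, all on the main first exon. The Pcgf1-/- to WT log2 ratio was 0.43, and among the 9 genes only Hes1 and Jag1 had a ratio above 0. Hes6 was above Hes1 in all samples, and both were closest in Pcgf1-/-, at 17.5 against 14.5 FPKM.

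Hey1 (ENSMUSG00000040289, chromosome 3, minus strand, 8663359 to 8667256), a repressor downstream of Notch in the vascular and cardiac lineages, was at 2.24, 1.87 and 1.94 FPKM on its last exon. On its first exon the values were 0.540 in WT, 0.991 in Pcgf1-/- and 1.94 in the restored cells. The direction of the difference therefore depends on the end of the gene that is read. By the last exon the log2 ratio of Pcgf1-/-+Pcgf1 to WT was -0.20, and by the first exon it was 1.68.

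**Figure D3:**
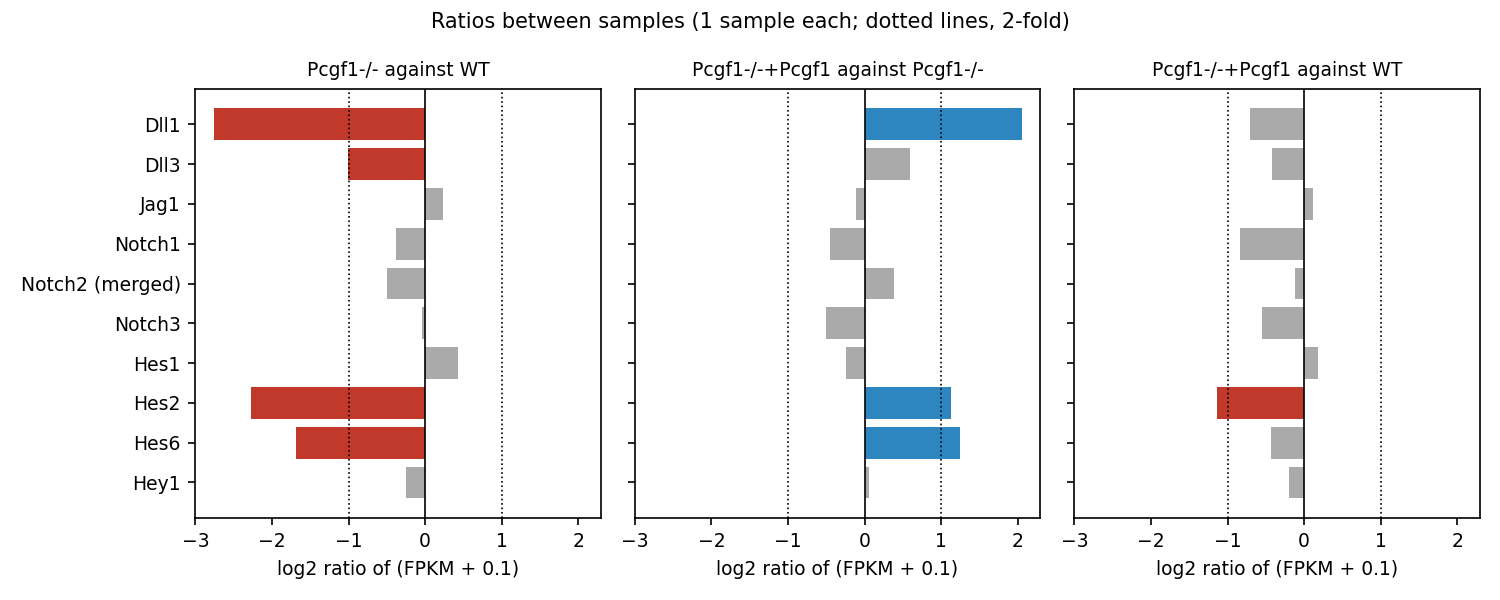
Log2 ratio of (FPKM + 0.1) for the 10 genes in the 3 comparisons, 1 sample each, with dotted lines at 2-fold. Red bars are genes more than 2-fold lower and blue bars genes more than 2-fold higher, and grey bars lie within the limit. Dll1, Hes2 and Hes6 are red in the first panel and blue in the second.

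The sequence upstream of these genes held more CpG dinucleotides than that of the median promoter. RefSeq windows were matched for 7 of the 10 genes, which gave 9 windows of 250 bases, and Hes1, Hes2 and Hey1 had no entry. All promoters of the table (32851 windows) had a median of 6 CpG dinucleotides. Of the genes called lower in Pcgf1-/-, the windows with an entry held 17 CpG at the main start of Hes6, 12 at its upstream start, 21 and 13 at those of Dll1 and 10 at Dll3. Those of the genes within the limit held 16 at Notch1, 17 at Notch3, 20 at Jag1 and 34 at Notch2. Every window therefore lay above the median, whether or not its gene differed. The windows of Dll1 (main start), Jag1, Notch2 and Notch1 lie partly within an annotated exon of the gene, with 97, 126, 239 and 248 of their 250 bases outside it, and that of Dll3 lies wholly within and is not shown.

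TGGGAA, the core of the sequence bound by Rbpj, was searched on both strands and was in none of the 9 windows, where 21.6% of all promoters held it. CACGNG was in 6 of the 9 windows (both of Dll1, the upstream start of Hes6, Notch2, Notch3 and Jag1), against 23.5% of all promoters. The site at the main start of Dll1 lies within the annotated exon and so outside the bases shown. CACGNG contains a CpG, and all 9 windows held more CpG than the median promoter, so that share is not a matched background. CACNAG was in 4 (the main start of Hes6, Notch1, Notch2 and Notch3), against 36.7%. The string CACGAG fits both. Such matches are a description of the letters in these windows.

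To see the 9 genes beside the rest of the pathway, 59 further genes were listed by role. Of these, 47 were above 0 in WT or Pcgf1-/-, 3 were listed at 0 (Dlk2 and Helt among them), and 9 had no value of their own because they were merged with a neighbour or not named in all samples. Compared with WT, 3 of the 47 were more than 2-fold lower in Pcgf1-/- and 3 were higher by more than 2-fold, with a median log2 ratio of -0.06. Over all genes 9.41% were lower and 4.07% higher, so both counts were near the background. In the restored cells compared with Pcgf1-/-, 4 of 46 were more than 2-fold lower (Notch4, Neurog3, Id1 and Id4) and 1 was higher (Mfng). Of all genes, 4.11% were lower and 11.8% higher in that comparison. Compared with WT, 3 of 46 were lower (Aph1c, Hes3 and Hes7) and 1 was higher (Id3), where 4.32% of all genes were lower and 7.31% higher.

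The genes called lower were at low levels. Dll4, a Delta-like ligand of the endothelium, was at 0.196 FPKM in WT, 0.0143 in Pcgf1-/- and 0.0557 in the restored cells. Hes3, a Hes factor of neural progenitors, was at 0.464, 0.0301 and 0.0840 FPKM in the same order. Both stayed low in the restored cells. Aph1c, a gamma-secretase subunit, was at 1.46, 0.223 and 0.125 FPKM and shares much of its sequence with Aph1b, so that its value is uncertain.

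The most abundant genes of the core machinery were within the limit between WT and Pcgf1-/-. Rbpj, the DNA-binding partner of activated Notch, was at 63.6 FPKM in WT, 59.7 in Pcgf1-/- and 92.7 in the restored cells. The gamma-secretase subunits Psenen and Aph1a were at 72.4 and 59.7 FPKM in WT and at 74.3 and 45.0 in Pcgf1-/-. Of the corepressors, Tle4 was at 22.6, 28.1 and 28.8 FPKM and Tle3 at 20.8, 17.3 and 19.4. All 6 corepressors, all 3 measured genes of the nuclear complex and all 3 proteases were within 2-fold in each of the 3 comparisons.

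Genes that modify the ligands and receptors were also within the limit in Pcgf1-/-. Mfng, a fringe glycosyltransferase that tunes which ligands a receptor answers to, came closest, at 8.83 FPKM in WT, 4.49 in Pcgf1-/- and 9.67 in the restored cells, with a log2 ratio of -0.96 to WT and 1.09 on return of Pcgf1. Rfng, of the same family, was at 14.3, 8.78 and 12.6 FPKM. Mib2, a ubiquitin ligase for ligands, was at 21.2, 14.5 and 18.9 FPKM, and Dtx1, a regulator of receptor trafficking, at 27.6, 20.6 and 16.004. These 4 were lower in Pcgf1-/- than in WT by less than the limit. Other genes of the same roles were not lower, with Mib1 at 6.33, 7.80 and 5.37 FPKM and Dtx2 at 21.0, 21.1 and 21.1. Among the remaining receptors and ligands, Notch4 was at 2.02, 3.71 and 1.65 FPKM, a log2 ratio of -1.12 for the restored cells to Pcgf1-/-, and Dlk1, an atypical ligand, at 9.15, 7.51 and 14.7. Furin, which cleaves the receptor during its maturation, was at 9.46, 11.8 and 6.83 FPKM.

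The genes called higher in Pcgf1-/- were all in the group of proneural and Id factors. Id1, which keeps proneural factors from binding DNA, was at 85.1 FPKM in WT, 423 in Pcgf1-/- and 95.0 in the restored cells, log2 ratios of 2.31 and -2.15. Id3 was at 12.7, 35.9 and 31.0 FPKM. Id1 was thus close to WT again with Pcgf1 returned and Id3 was not. Id2 was at 74.7, 118 and 125 FPKM, and Id4 at 3.35, 6.70 and 2.45, just within the limit for Pcgf1-/- to WT at 0.98. Id genes are known as targets of BMP signalling. Neurog3, a proneural factor, was at 0.552 FPKM in Pcgf1-/- and listed at 0 in both other samples.

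**Figure D4:**
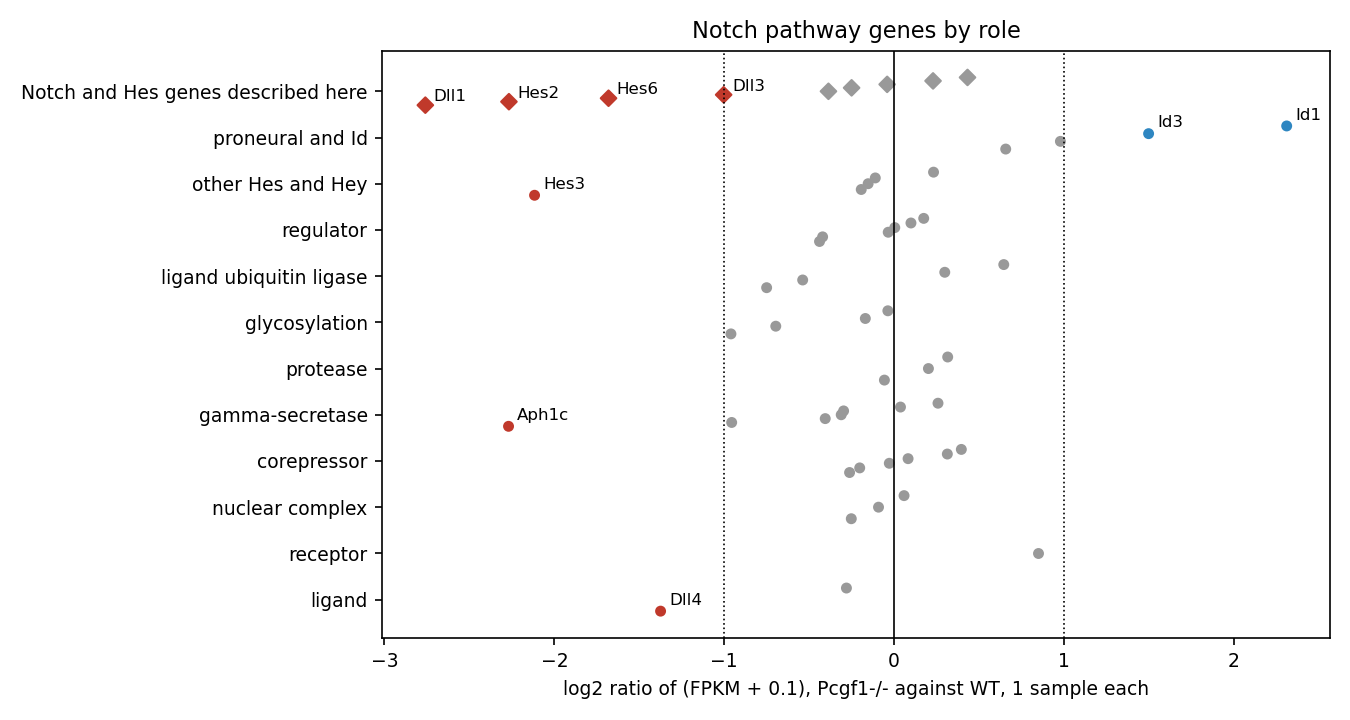
Log2 ratio of (FPKM + 0.1) of Pcgf1-/- to WT, 1 sample each, for the genes described here (diamonds) and for other Notch pathway genes by role (circles), leaving out genes at 0 in either sample. Dotted lines mark 2-fold, with genes beyond it in red or blue and named. Most circles lie within the lines, with Aph1c at -2.27 and Id1 at 2.31 the farthest out.

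Other values of the same samples are set beside these differences, and only some of them follow the same order. The targeted gene itself was at 14.0 FPKM in WT, 5.88 in Pcgf1-/- and 7.86 in the restored cells, and since its first and last exons lie outside the removed part, this level is no check of the deletion. The markers of ES cells stood out in all samples, with Pou5f1 at 670, 518 and 626 FPKM, and the sum of the 6 measured markers was 1825, 1820 and 1613 FPKM. Nanog was at 68.2, 46.3 and 123 FPKM, the only 1 of the 6 beyond 2-fold in any comparison (log2 1.41 for the restored cells to Pcgf1-/-), and like Pou5f1 was lowest in Pcgf1-/-. Zfp42, Esrrb, Tdgf1 and Klf2 were highest in Pcgf1-/-, with log2 ratios to WT between 0.15 and 0.54. Markers of fibroblasts, the cells of the feeder layer, were low, and their summed level, like Dll1, Hes2 and Hes6, was lowest in Pcgf1-/-. The sum of the 12 markers above 0 was 18.9 FPKM in WT, 8.68 in Pcgf1-/- and 20.5 in the restored cells, and 4 of the 12 were more than 2-fold lower in Pcgf1-/- than in WT (9.41% of all genes), with 7 more than 2-fold higher in Pcgf1-/-+Pcgf1 than in Pcgf1-/- (11.8% of all genes). Dcn and Lox did not follow the sum and were lowest in WT, at 0.352 and 0.219 FPKM against 0.779 and 0.222 in Pcgf1-/-. Without Thy1 the sums were 4.71, 2.29 and 7.08 FPKM. Lum and Prrx1 were at 0 in Pcgf1-/-, and Postn was at 0 throughout. The part of feeder cells in the values of Dll1, Hes2 and Hes6 was not tested. In bulk samples, fewer cells of a type and less RNA per cell cannot be told apart. The 3 measured markers of neural progenitors were within 2-fold in every comparison. Of the 6 markers of primitive endoderm, all at or below 1.42 FPKM, Gata6 (0.136 FPKM in WT and 0.410 in Pcgf1-/-) and Sox7 (0.144 and 0.414) were more than 2-fold higher in Pcgf1-/- than in WT, and Gata4, Sox17, Foxa2 and Dab2 were within the limit, with log2 ratios between -0.90 and 0.75. In the restored cells Gata6 was at 0.129 FPKM and Sox7 at 0.648. Sox17 was at 0.133 FPKM in Pcgf1-/- and at 0 in the restored cells. Of the 3 mesoderm markers above 0, Kdr was lower in Pcgf1-/-, at 2.13, 0.198 and 1.33 FPKM in WT, Pcgf1-/- and restored cells. T and Eomes were within the limit in Pcgf1-/-, at log2 ratios to WT of -0.25 and 0.62.

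**Figure D5:**
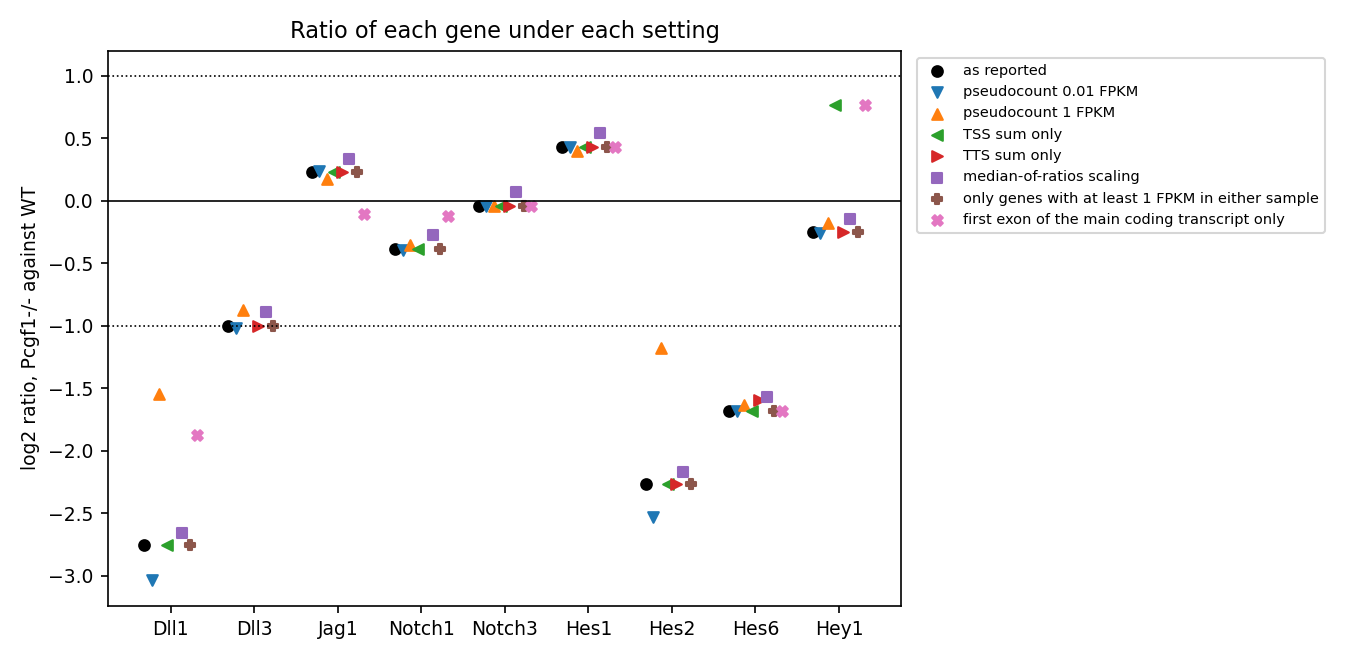
Log2 ratio of Pcgf1-/- to WT for each of the 9 genes with a name of its own, as reported and under each alternative setting, with dotted lines at 2-fold. Hes6 stays between -1.69 and -1.57, Dll1 between -3.04 and -1.55, and Dll3 crosses the line at -1 under a pseudocount of 1 FPKM and under scaling.

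The genes nearest to each of the 4 lower genes were found by Euclidean distance between log2(FPKM + 0.1) values over the 3 samples, among all 25350 genes. Nearest to Dll1 were Enpp2, at a distance of 0.26 on the log2 scale, Otx2, at 0.33, and Sepp1, at 0.45. Otx2, a transcription factor of the anterior neuroectoderm, was at 2.35 FPKM in WT, 0.382 in Pcgf1-/- and 1.66 in the restored cells. Nearest to Hes2 were D030068K23Rik at 0.35, Kng1 at 0.37 and Gdap1l1 at 0.39. Nearest to Hes6 were Fstl1 at 0.32, Alpl at 0.49 and Mnat1 at 0.50. Alpl, the alkaline phosphatase used to stain ES cell colonies, was at 43.2, 19.3 and 50.2 FPKM. Within a distance of 1 there were 45 genes around Dll1, 78 around Hes6 and 96 around Hes2. Around Dll3 there were 1183, the nearest being Cd59b at 0.03. With 3 samples a like pattern is common, and these distances are a description.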

How the data were processed

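RNA-seq of 3 mouse ES cell samples, 1 per condition, was analysed. The submitters' processing notes name TopHat2 2.0.12, Cufflinks 2.2.1 and HTSeq 0.6.0 with mm10; the paper's methods name TopHat, RPKM and DEGseq. The authors deposited, for each sample, transcript events (first exon, last exon, skipped exon, retained intron) with an FPKM each, calculated per sample. The program that made the events is not given in the sources used here. Assembly per sample can list an exon in 1 sample only, which moves sums of first exons.

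Per gene name, FPKM were added up over first exons and over last exons, and the larger total was kept. Rows without a name, with several names or with date-like names were not used. Log2 ratios were computed after adding 0.1 FPKM and called beyond 2-fold. Total read depth is unknown. Annotation was GENCODE vM21 (mm10), with promoter sequences from RefSeq. The members and lists were chosen with earlier results of these data known. Named are all 10 members, the pathway genes beyond 2-fold in Pcgf1-/- against WT or at 0 (1 of these is not reported here), and up to 2 per role with the highest FPKM in WT. The 3 nearest genes were found for each member beyond 2-fold. Id4, Hes7 and the genes antisense to a member were named after their values were seen. In all, 6 planned and 1 added alternative were computed. Python 3.11.15, numpy 2.4.6, pandas 2.3.3 and matplotlib 3.10.9 were used.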

Additional observations from a re-analysis of the deposited data

How the results depend on the processing

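No paired analysis was possible because each condition has 1 sample, and for the same reason no sample could be left out. Of the recomputed ratios of single genes, 8 moved across the 2-fold limit and 165 did not. Many of the 165 could not move, because the filter leaves a ratio as it is and the sum of a single end is often the reported value itself. No ratio beyond 2-fold as reported changed sign. That of Hey1 for Pcgf1-/-+Pcgf1 to WT was -0.20 as reported and 1.68 by first exons. The settings were a pseudocount of 0.01 or 1 FPKM, first-exon or last-exon sums only, median-of-ratios scaling, a filter of at least 1 FPKM in either sample and, chosen after seeing the data, the first exon of the main coding transcript alone.

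With the main first exon alone, 2 genes (Hes6 and Dll1) in place of 4 were more than 2-fold lower in Pcgf1-/- than in WT, 1 (Hes6) in place of 3 was higher in Pcgf1-/-+Pcgf1 than in Pcgf1-/-, and 1 (Hey1) in place of none was higher in Pcgf1-/-+Pcgf1 than in WT. The gene lower than WT was then Dll1, at a log2 ratio of -1.41, in place of Hes2. Only 7 genes have such a value: that exon of Hes2 was at 0 and that of Dll3 was not listed. First-exon sums also gave 1 gene, Hey1, higher than WT. With a pseudocount of 1 FPKM, 0 genes in place of 1 were lower in Pcgf1-/-+Pcgf1 than in WT, by a fold limit and without a test. The number of the further listed genes lower in Pcgf1-/- went from 3 to 5 with a pseudocount of 0.01 FPKM and to 1 with 1 FPKM. With the filter it was 1 of 35 genes, where 6.11% of all genes with at least 1 FPKM were lower. The share of all genes is not given for the other settings, so counts under those settings have no matched background. Scaling moved the median log2 ratio of genes with at least 1 FPKM from -0.09 to 0.02 for Pcgf1-/- to WT and turned that of Notch3 above 0. Last-exon sums gave no value for Notch1 and Dll1, nor first-exon sums for Dll3. Dll1 and Hes2 in Pcgf1-/- rest on the fewest fragments.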
